A study of Mus musculus with 24 samples.

Results

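MPP3 and MPP2, neighbouring classes of multipotent blood progenitors, were compared by ATAC-seq in 12 of the 24 libraries of the series, 6 of each class, over all nuclear regions of the deposited count table. The members are the MPP3 and MPP2 libraries of both recipient types, taken by their labels, with recipient type as a covariate. All profiled cells came from WT CD45.1 donors whose marrow had been transplanted into young CD45.2 mice that were either WT or of a line called IκB–, and donor cells were sorted from femur and tibia marrow 13 to 15 weeks later. In the deposited counts the IκB– libraries carry the prefix KO. Which gene is changed in this line, and in which tissues, is not described by the labels. The 4 groups, each with 3 libraries of 500 to 1500 cells, were MPP2 from WT recipients, MPP3 from WT recipients, MPP2 from IκB– recipients and MPP3 from IκB– recipients. Both classes were gated as donor cells without lineage markers, with Sca1, with high cKit and CD48 and without Flt3, and they differed in the gate only by CD150, present on MPP2 and absent from MPP3. Whether the replicates came from separate mice is not stated, so the p-values measure the spread between these samples, which may be in part technical.

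ATAC-seq reads mark DNA that Tn5 transposase can reach, chiefly promoters and enhancers, so a higher count at a region stands for more open chromatin there. MPP2 and MPP3 both descend from hematopoietic stem cells (HSC) and both can make myeloid cells. MPP2 is known for its lean towards megakaryocytes and red cells, whose programme is driven by GATA factors and their cofactor FOG1, and MPP3 for its lean towards granulocytes and macrophages, where PU.1 (Spi1) and C/EBPα (Cebpa) are the leading factors. Libraries of sorted pools are bulk samples, in which fewer cells with an open region and a less open region in each cell cannot be told apart.

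Depth was uneven. The 12 libraries held 131644 to 950203 nuclear counts in 13905 nuclear regions. For WT MPP3, the counts of replicates 2 and 3 differed by no more than sampling noise (chi-square divided by its degrees of freedom 0.995, with p = 0.67, in 13121 regions with at least 10 counts), whereas that ratio was 1.38 and 1.46 for replicate 1 against each of them. Both were therefore summed and entered as 1 replicate, which leaves n = 5 for MPP3 and n = 6 for MPP2. For the depth test alone, the nuclear counts of this pair were averaged and not summed. Nuclear depth was then higher in MPP3 by 0.56 on the log2 scale, a difference that did not pass (two-sided exact permutation test within recipient types, p = 0.26). The first principal component, with 33.7% of the variance, placed every MPP3 replicate above 0 and every MPP2 replicate below it (-48.1 to -17.5).

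The gate gene itself was read first. Slamf1 encodes CD150, the marker that separated the sorts. The region inside Slamf1 (chr1:171773271-171773506 in mm10, coordinates as in the file) had 11, 13 and 4 counts in the WT MPP2 libraries and 6, 1 and 5 in the IκB– MPP2 libraries. It had 2, 3 and 3 counts in the WT MPP3 libraries and 2, 0 and 0 in the IκB– MPP3 libraries. The sums of 40 and 10 counts correspond to 19.2 and 3.59 per 1000000 nuclear counts, higher over the libraries labelled MPP2. Library by library the values were 7.60 to 42.2 in MPP2 and 0 to 10.9 in MPP3 and overlapped: replicates 1 and 2 of IκB– MPP2, at 8.91 and 7.60, lay below replicates 2 and 3 of WT MPP3, at 9.17 and 10.9. The region was too low for the main filter. In a fit without a filter its log2 fold change, MPP3 over MPP2, was -2.34 ± 0.54 (SE, adjusted p = 0.00406). Kit and Flt3, on which both gates agree, gave no call in any of their 4 tested regions, with log2 fold changes of 0.40, 0.12, 0.22 and -0.14 and adjusted p-values of 0.399 to 0.862. For Cd48 and Ly6a no region was analysed here.

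Regions at Cavin2, Vwf, Pf4, Mfsd2b and other genes of megakaryocytes and red cells were more open in MPP2, and regions at Cebpa, Spi1 and Hmga1 were more open in MPP3. In total 1668 of 13672 tested regions (12.2%) passed an adjusted p of 0.05 in edgeR's quasi-likelihood test and are referred to as called. Of all tested regions, 458 (3.35%) were higher in MPP3 and 1210 (8.85%) were lower. The lower calls were also larger: their median log2 fold change was -1.21 against 0.97 for the higher calls, and of the 176 calls beyond 4-fold 163 were lower in MPP3. The replicates of the classes did not overlap in 678 tested regions (4.96%), with MPP3 lower in 3.61% and higher in 1.35% of the regions tested. Among them were 450 of the lower and 121 of the higher calls. With the 12 libraries kept apart, 6 against 6, 1785 of 13181 regions (13.5%) were called, 599 higher (4.54%) and 1186 lower (9%), and 1568 of them were among the 1668, all with the same direction. The counts leaned on single libraries. Without replicate 1 of IκB– MPP2 887 regions were called, 193 higher and 694 lower, and the higher calls numbered 243 without replicate 1 of WT MPP2, 271 without replicate 3 of IκB– MPP3 and 272 without replicates 2 and 3 of WT MPP3.

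**Figure D1:**
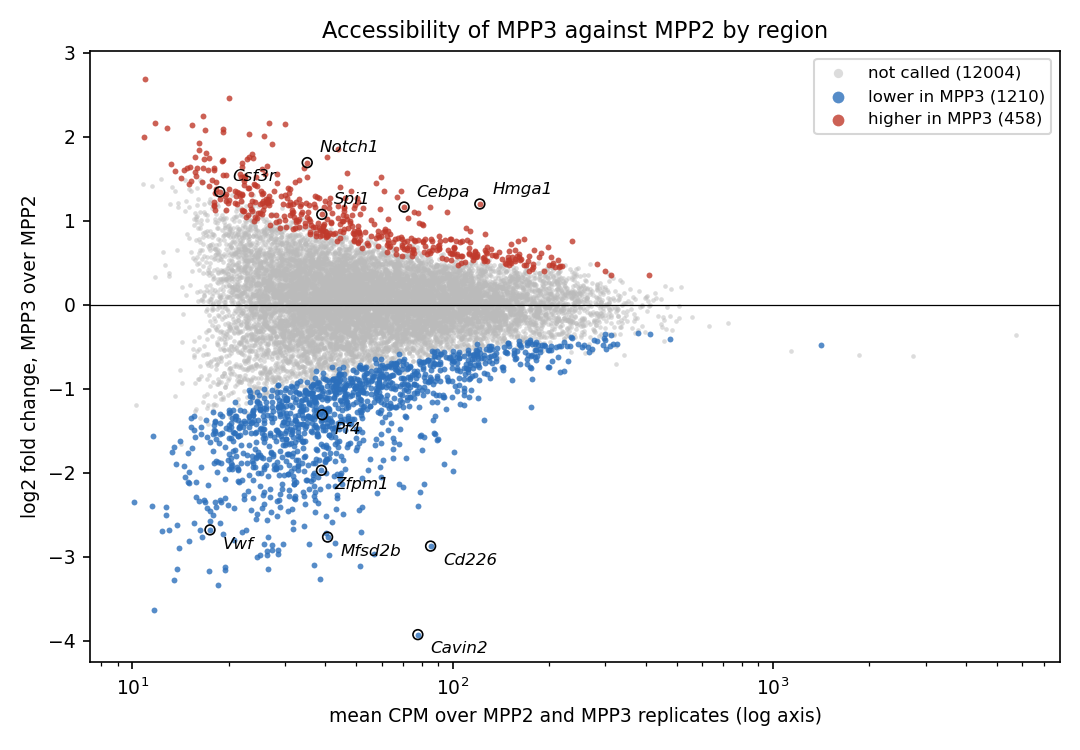
Each point is 1 of the 13672 tested regions, with its mean CPM on a log axis and its log2 fold change, MPP3 over MPP2; red points are the 458 regions called higher in MPP3, blue points the 1210 called lower, grey points were not called, and circles mark regions named in the text. The blue cloud reaches down to Cavin2 at -3.93, while few red points lie above 2.

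To show the DNA behind promoter calls on both sides, the start-site windows of Cebpa, Hmga1, Pf4 and Cpox are printed. Their calls held whichever replicate was left out. Sequences are from RefSeq for GRCm38.p6, the assembly of mm10, from 250 bases before to 50 bases after the start site, on the strand of the gene, which is the plus strand in each case. Windows lie at chr7:35119043-35119342 for Cebpa, chr17:27556324-27556623 for 1 of the start sites of Hmga1, chr5:90772185-90772484 for Pf4 and chr16:58669958-58670257 for Cpox. Capitals mark matches on either strand to the letters of known factors. For GATA factors these were AGATAA and, as the other form, TGATAA. The letters searched for PU.1 were GAGGAAG, while those for C/EBP were TTGCNNAA. Runx factors were searched as TGTGGT, and for AP-1 the letters were TGANTCA. No matches share bases in these windows. The called regions cover 300, 239, 156 and 155 bases of the 300 in that order.
Cebpa: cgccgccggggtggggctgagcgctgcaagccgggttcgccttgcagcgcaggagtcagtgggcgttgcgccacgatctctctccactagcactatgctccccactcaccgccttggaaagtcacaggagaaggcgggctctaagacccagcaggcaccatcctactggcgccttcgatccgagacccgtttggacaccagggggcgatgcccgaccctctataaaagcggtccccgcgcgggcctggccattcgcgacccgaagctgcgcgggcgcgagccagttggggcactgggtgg
Hmga1: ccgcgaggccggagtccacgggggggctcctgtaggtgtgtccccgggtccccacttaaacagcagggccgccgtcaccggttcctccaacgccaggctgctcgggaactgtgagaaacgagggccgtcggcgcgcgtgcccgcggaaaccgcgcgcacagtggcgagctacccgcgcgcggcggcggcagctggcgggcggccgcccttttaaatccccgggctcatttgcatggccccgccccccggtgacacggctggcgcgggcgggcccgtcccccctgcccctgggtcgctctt
Pf4: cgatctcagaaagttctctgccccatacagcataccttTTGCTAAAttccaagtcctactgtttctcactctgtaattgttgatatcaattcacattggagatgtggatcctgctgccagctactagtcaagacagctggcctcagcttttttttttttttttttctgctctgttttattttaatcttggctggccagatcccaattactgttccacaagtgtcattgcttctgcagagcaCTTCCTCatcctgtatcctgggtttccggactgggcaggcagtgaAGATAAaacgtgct
Cpox: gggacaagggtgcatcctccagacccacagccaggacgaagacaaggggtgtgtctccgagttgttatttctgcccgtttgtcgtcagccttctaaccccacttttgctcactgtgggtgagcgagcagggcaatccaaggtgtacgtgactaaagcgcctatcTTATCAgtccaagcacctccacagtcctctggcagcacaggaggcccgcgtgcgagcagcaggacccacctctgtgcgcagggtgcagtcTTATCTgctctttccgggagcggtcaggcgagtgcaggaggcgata
The Cebpa and Hmga1 windows, open more in MPP3, are 67.3% and 74.0% GC and hold none of these letters. The Pf4 and Cpox windows, open more in MPP2, are 43.3% and 58.7% GC. Pf4 holds a GATA, a PU.1 and a C/EBP match, at 36, -9 and -212 from the start site. The C/EBP match lies outside the called region. Cpox holds 2 GATA matches.

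Over all promoter windows that overlapped a called region, the GATA letters were commoner on the MPP2 side. They occurred in 61 of 329 windows (18.5%) over regions lower in MPP3, in 12 of 225 (5.33%) over regions higher in MPP3 and in 7.23% of 8013 windows over tested regions without a call. Base composition moved in the same order: the windows averaged 56.8% GC on the MPP2 side, 67.7% on the MPP3 side and 63.2% without a call, and its part in the motif shares was not tested. Among all 32851 promoter windows of the table, 53.8% GC on average, 18.6% hold the GATA letters. The PU.1 letters occurred in 17.8% of windows on the MPP3 side, 13.7% on the MPP2 side and 12.9% without a call. The C/EBP letters occurred in 6.67%, 9.12% and 7.16%, the Runx letters in 8.89%, 14.9% and 11.2%, and the AP-1 letters in 3.11%, 6.08% and 3.57% in the same order. Over all promoter windows these shares were 13.6% for PU.1, 10.8% for C/EBP, 16.8% for Runx and 7.81% for AP-1. These are matches of letters, not binding sites.

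The strongest single difference was at Cavin2, which encodes a coat protein of caveolae that is abundant in platelets. Its region (chr1:51300260-51300616, inside the gene) measured 105, 132 and 180 CPM (counts scaled to a library of 1000000 counts after TMM normalization) as the lowest, median and highest of the 6 MPP2 replicates. In MPP3 it measured 16.0 and 12.9 CPM in WT recipients, the second being the summed replicate, and 2.04, 14.9 and 0 CPM in IκB– recipients. All MPP3 replicates thus lay far below all MPP2 replicates. The log2 fold change was -3.93 ± 0.32 (adjusted p = 3.57e-09).

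The 12 lower regions with the smallest p-values spanned log2 fold changes of -3.93 to -2.17. Beside Cavin2 they included regions at Cd226, an adhesion receptor of platelets and lymphocytes (-2.87 ± 0.27), at Gucy1b1, the β subunit of the nitric oxide receptor guanylate cyclase (-3.11 ± 0.34), and outside genes 22482 bp from Nek2, a kinase of the centrosome (-2.98 ± 0.31). Others lay inside Dpy19l1 (-3.27 ± 0.34) and Ak7, an adenylate kinase (-2.44 ± 0.27), and near Esf1 (-2.96 ± 0.31) and Slc46a3 (-2.17 ± 0.24). A further pair lay outside genes on chromosome 2, with Zeb2, a zinc-finger repressor of myeloid and lymphoid development, as the nearest protein-coding gene: chr2:45171738-45172112, 54296 bp away (-2.41 ± 0.26), and chr2:45434167-45434636, 316725 bp away (-2.70 ± 0.27). In 12 of 12 the replicates of the classes did not overlap, against 3.61% of all tested regions with MPP3 lower. All 12 were called within each recipient type and under each of the 27 alternatives that gave a value. Over all tested regions 0.695% were called lower in WT and 9.49% in IκB– recipients. The 12 were picked for small p-values in these same libraries, so these counts are not separate support. Only 1 of the 12 lay within 1 kb of a gene end.

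Regions at genes of megakaryocytes and red cells were called lower in MPP3 in 20 of 61 tested regions (32.8%, against 8.85% of all tested regions) and higher in 1. The 20 belong to 17 genes, and the median log2 fold change over the 61 was -0.12 against 0.016 over all tested regions. Most regions of these genes were thus not called. The 8.85% is not matched for position: 42 of the 61 lay over 1 kb from a gene end. Over all tested regions lower calls made up 12.7% inside genes, 17.6% outside genes and 4.05% at gene ends. Among the genes of platelets and their precursors, the region inside Vwf, the carrier of factor VIII, had 0, 0 and 4.08 CPM in IκB– MPP3 and 4.01 and 9.70 CPM in WT MPP3. The MPP2 replicates ranged from 15.6 to 40.7 CPM with a median of 29.3, and the classes did not overlap (-2.68 ± 0.49, adjusted p = 0.000387). At the promoter of Pf4, platelet factor 4, MPP3 measured 14.9 to 29.1 CPM and MPP2 31.2 to 86.6 CPM, next to each other without overlap (-1.31 ± 0.29, adjusted p = 0.0028). Regions of Rab27b, which acts in platelet granule release (-2.63 ± 0.35), and of Selp, P-selectin of platelets and endothelium (-2.32 ± 0.42), were likewise separate.

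Among the genes of red cells and of the shared programme, the region at the end of Mfsd2b, the exporter of sphingosine-1-phosphate from red cells and platelets, stood out. It measured 40.5 to 86.6 CPM in MPP2, 18.0 and 19.4 CPM in WT MPP3 and 4.08, 2.49 and 2.89 CPM in IκB– MPP3 (-2.77 ± 0.35, adjusted p = 4.54e-06). The MPP3 replicates were below all MPP2 replicates in both recipient types. The region inside Slc14a1, the urea transporter of red cells (-1.84 ± 0.28), also had separate groups. Zfpm1 encodes FOG1, the cofactor of GATA1, and 2 regions inside it were lower in MPP3 (-1.97 ± 0.31 and -1.19 ± 0.26, adjusted p = 9.37e-05 and 0.00296). A region 43944 bp from Car2, a carbonic anhydrase of red cells, was lower by the main test (-1.95 ± 0.36, adjusted p = 0.000487) and had -1.42 and an adjusted p of 0.0561 once the share of counts near gene ends was a covariate. A region inside Nfia (-1.86 ± 0.42) and the promoter of Cpox, an enzyme of heme synthesis (-0.75 ± 0.18, adjusted p = 0.00475), were lower as well. Of the 20 lower calls of the list 13, at 12 genes, kept their call whichever replicate was left out, the regions named so far among them.

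Each of the other 7 lower calls of this list was lost in at least 2 of the 13 fits that left out 1 replicate or the summed pair, with 9 losses each for Gp1ba and the second Nfia region, 7 for Epor and 4 for Plek. Gp1ba also missed the threshold with the 12 libraries apart (0.0604) and with DESeq2 (0.0591). Without replicate 1 of IκB– MPP2 the adjusted p was 0.085 for the second Cpox region, 0.0831 for Thbs1, 0.149 for the promoter of Gp1ba and 0.188 for the second Nfia region. It was 0.0711 for Plek without replicate 1 of IκB– MPP3, and 0.10 for Aqp1 and 0.114 for Epor without replicate 3 of IκB– MPP2. The single higher call, near the corepressor gene Cbfa2t3 (0.96 ± 0.27), had an adjusted p of 0.0912 without replicate 1 of IκB– MPP2. The count of lower calls on this list ran from 15 to 19 when 1 replicate at a time was left out, and 13 of the 20 were called, with none of the higher, when the share of counts near gene ends was a covariate. The summed level of the list was 3360 to 3757 CPM in WT MPP2, 2779 to 3148 CPM in WT MPP3, 3146 to 3488 CPM in IκB– MPP2 and 2614 to 2945 CPM in IκB– MPP3, without overlap within either recipient type. Regions of Gata2, Klf1, Tal1 and Itga2b were tested and none was called, with log2 fold changes of -0.67 to 0.48, and for Gata1 and Itgb3 no region was analysed here.

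**Figure D2:**
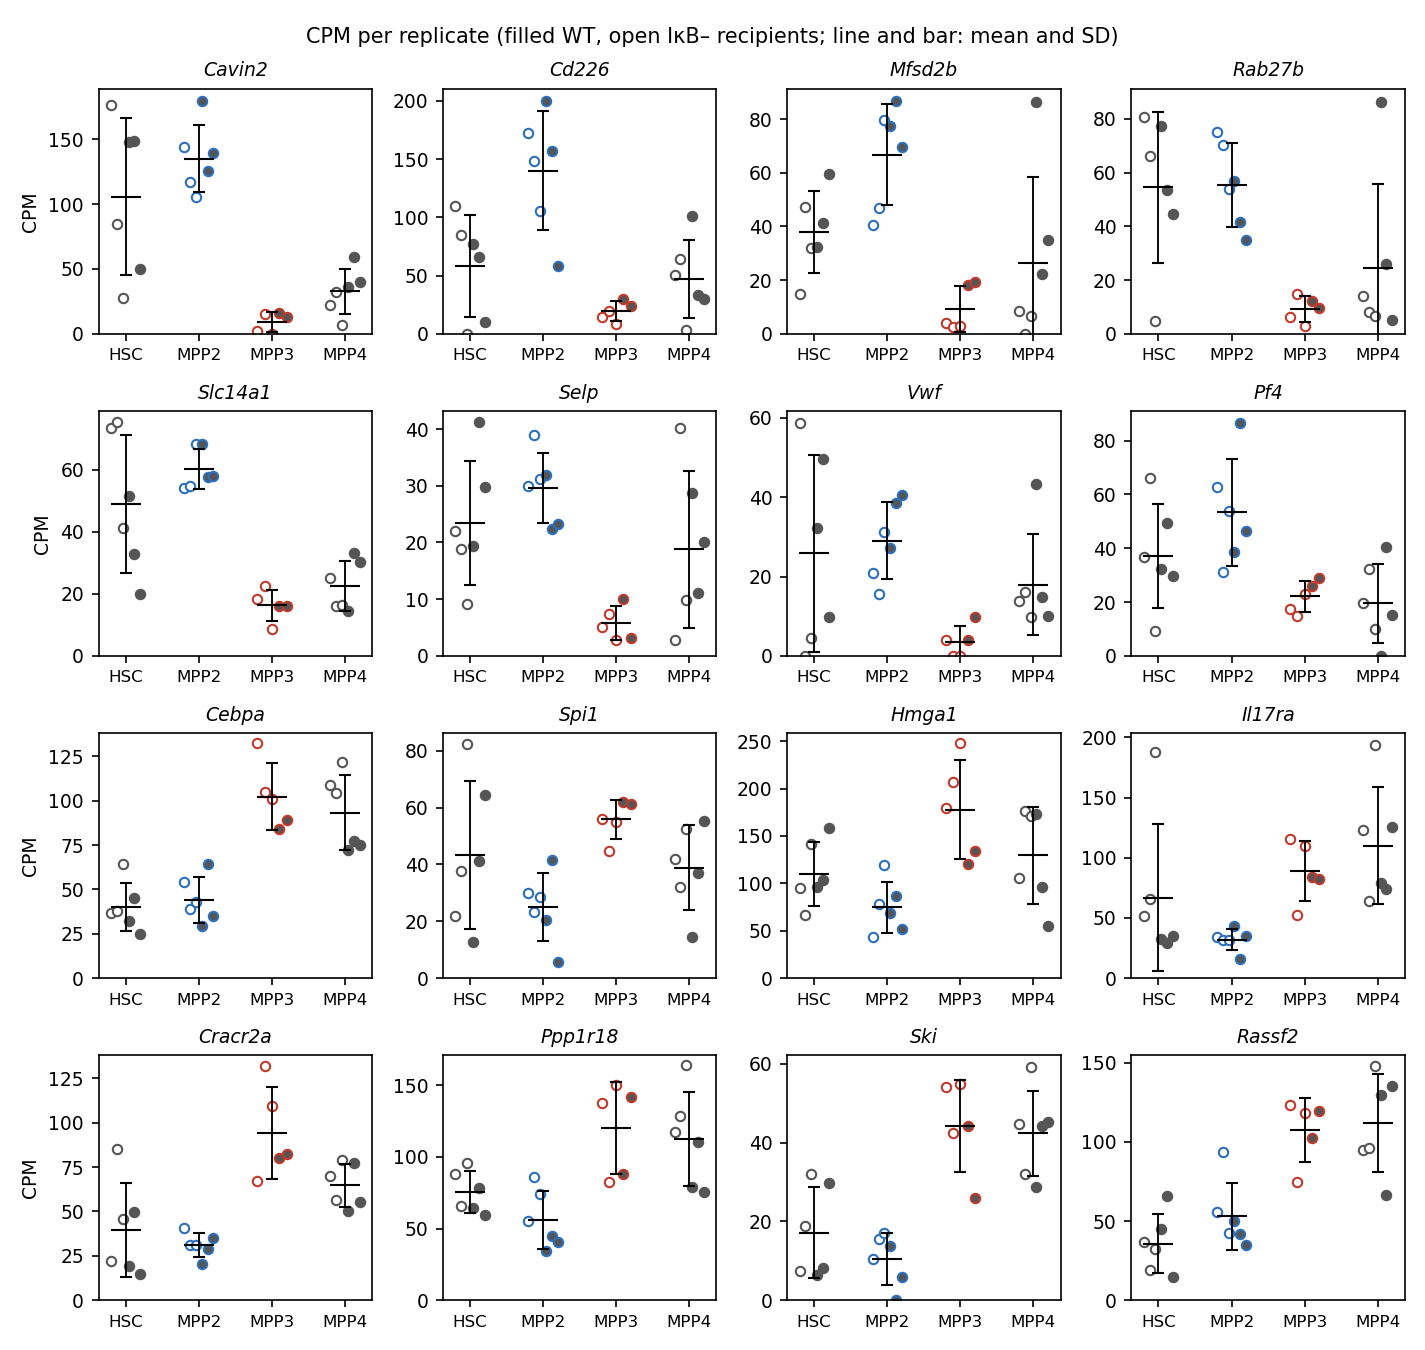
Each panel gives 1 region's CPM per replicate in HSC, MPP2, MPP3 and MPP4, filled for WT and open for IκB– recipients, with the mean and SD as a line and bar. The upper 8 regions were called lower and the lower 8 higher in MPP3; Cavin2, for example, is at 9.19 ± 7.58 CPM in MPP3 (red outlines) and 135 ± 26.1 CPM in MPP2 (blue outlines).

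Among the 12 higher regions with the smallest p-values, the Cebpa promoter belongs to the leading factor of the granulocyte fate. In MPP2 it measured 29.6, 40.8 and 64.2 CPM as the lowest, median and highest replicate. In MPP3 it measured 84.2 and 88.9 CPM in WT recipients and 133, 105 and 101 CPM in IκB– recipients. All MPP3 replicates were above all MPP2 replicates (1.16 ± 0.21, adjusted p = 0.000386). A further region, chr2:167753912-167754282, lay outside genes 63480 bp from Cebpb, the gene of a related factor, and was higher by 1.35 ± 0.24.

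The region at the start of Hmga1, a chromatin protein that bends AT-rich DNA, measured 43.5 to 119 CPM in MPP2 and 120, 134, 180, 207 and 248 CPM in MPP3, which came close without overlap (1.20 ± 0.20, adjusted p = 0.000192). Il17ra encodes the receptor of the cytokine interleukin-17, and a region inside it was higher by 1.45 ± 0.25. Regions inside Cracr2a, a calcium sensor (1.52 ± 0.24), Ski, a corepressor of TGF-β signalling (2.01 ± 0.38), Kank1 (2.46 ± 0.47), 3110082I17Rik (1.76 ± 0.31) and Ppp1r18, an actin-linked phosphatase subunit (1.17 ± 0.22), were higher too. So was a region at the end of Rassf2 (1.09 ± 0.21). In 9 of the 12 the replicates did not overlap, against 1.35% of all tested regions with MPP3 higher. Ppp1r18 and Rassf2 were among the exceptions. All 12 were called under each of the 27 alternatives that gave a value, with adjusted p-values up to 0.0447. Within IκB– recipients 12 of the 12 were called, and within WT recipients 4 of the 12. Over all tested regions 3.12% were called higher in IκB– and 0.19% in WT recipients. These 12 too were picked for small p-values in the same libraries, so such counts are not separate support. Cebpa had an adjusted p of 0.144 and Hmga1 of 0.222 in WT recipients.

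Over the list of granulocyte and macrophage genes, 6 of 57 tested regions (10.5%, against 3.35% of all) were higher in MPP3 and 2 (3.51%, against 8.85%) were lower, with a median log2 fold change of 0.30 against 0.016 over all. Beside Cebpa, the region at the end of Spi1, which encodes PU.1, was higher. It measured 62.2 and 61.4 CPM in WT MPP3 and 56.1, 44.8 and 54.8 CPM in IκB– MPP3, against 5.81 to 41.7 CPM in MPP2 with a median of 25.9, again without overlap (1.08 ± 0.28, adjusted p = 0.0101). The Spi1 region was called in neither recipient type alone (adjusted p = 0.136 in WT and 0.113 in IκB– recipients). A region near Plac8 was higher with overlapping groups (0.99 ± 0.26, adjusted p = 0.0125). Spi1 and Plac8 lost the call when the gene-end share was a covariate (adjusted p = 0.0814 and 0.0854), and Cebpa kept it (0.0322). Their log2 fold changes with that covariate were 1.09, 0.98 and 0.95, close to those without it. The calls for Itgam, an integrin of myeloid cells (1.49 ± 0.42), Csf3r, the receptor of G-CSF (1.34 ± 0.41), and Il6ra, the interleukin-6 receptor (1.58 ± 0.49), were less stable, lost in 3 and 5 of 13 and in 4 of 11 fits that left out 1 replicate or the summed pair. Their adjusted p rose at most to 0.0583 without replicate 1 of WT MPP2, to 0.114 without replicate 1 of IκB– MPP3 and to 0.113 without replicates 2 and 3 of WT MPP3. The 2 lower calls, a region inside Zeb2 (-1.39 ± 0.36) and 1 near Anxa1 (-1.99 ± 0.53), rose to 0.066 without replicate 1 of IκB– MPP2 and to 0.0658 without replicates 2 and 3 of WT MPP3. With DESeq2 Csf3r and Il6ra had 0.0532 and 0.0562. With the gene-end share as covariate Itgam and Csf3r had 0.232 and 0.269, with log2 fold changes of 1.30 and 1.09. With that covariate 2 of the 6 higher calls, Cebpa and Il6ra, and 0 of the 2 lower ones were made. The summed level of the list overlapped between classes: 2127 to 2782 CPM in WT MPP2, 2731 to 2910 CPM in WT MPP3, 2633 to 2646 CPM in IκB– MPP2 and 2489 to 2904 CPM in IκB– MPP3. The count of higher calls on this list was 4 to 10 when 1 replicate at a time was left out, the 10 without replicate 2 of IκB– MPP3. The count of lower calls was 1 to 3. For Mpo, Elane and other granule genes no region was analysed here.

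On the lymphoid list 3 of 33 regions (9.09%, against 3.35% of all) were higher and 5 (15.2%, against 8.85%) lower in MPP3. A pair of regions, the first 9467 bp from and the second inside Notch1, a receptor needed for T cell fate, was higher and held in each fit that left out 1 replicate (1.69 ± 0.36, adjusted p = 0.00198, and 1.06 ± 0.27, adjusted p = 0.00826, the latter with 0.90 and an adjusted p of 0.129 with the gene-end share as covariate). The other 6 calls did not hold in all of these fits: for Bcl11a 1 region was higher (1.26 ± 0.35) and another lower (-1.21 ± 0.36), and regions of Mef2c (-0.89 ± 0.27 and -1.04 ± 0.33), Ets1 (-0.77 ± 0.24) and Tcf4 (-1.46 ± 0.46) were lower. The adjusted p of the higher Bcl11a region was 0.0684 without replicate 1 of WT MPP2. Without replicate 1 of IκB– MPP2 none of the 5 lower calls remained, with adjusted p-values up to 0.254 over the fits that left out 1 replicate, in which 0 to 5 lower calls were made on this list. With the gene-end share as covariate 1 of the 3 higher and 0 of the 5 lower calls were made. The summed level overlapped in IκB– recipients, 1537 to 1670 CPM in MPP2 and 1508 to 1736 CPM in MPP3, and not in WT recipients, 1447 to 1690 CPM and 1724 to 1774 CPM.

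On the stem cell list 1 of 35 regions (2.86%, against 3.35% of all) was higher and 3 (8.57%) were lower, against 8.85% of all. Without replicate 3 of WT MPP2 there were 2 higher and 5 lower calls, and without replicate 1 of WT MPP2 or of WT MPP3 there was no higher one. The 3 lower regions kept their call in all fits that left out a replicate. They lay near Pdzk1ip1, a membrane protein gene used as a stem cell marker (-0.75 ± 0.13, adjusted p = 0.000277), near Nupr1, a stress-response gene (-2.38 ± 0.42, adjusted p = 0.000318), and inside Runx1, a master factor of blood formation (-1.02 ± 0.22, adjusted p = 0.00242). Pdzk1ip1 measured 185 to 241 CPM in MPP2 and 101 to 148 CPM in MPP3, and Runx1 58.1 to 86.6 CPM and 22.4 to 46.9 CPM, so neither overlapped. The higher call near Cd34 (1.15 ± 0.32) had an adjusted p of 0.0851 without replicate 1 of IκB– MPP3 and of 0.292 with the gene-end share as covariate. The summed level of the list was 1922 to 2233 CPM in MPP2 and 2079 to 2256 CPM in MPP3, with overlap.

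On the list of cell cycle genes 4 of 44 tested regions (9.09%, against 3.35% of all) were higher in MPP3 and 0 were lower, against 8.85% of all. They are named here after their values were seen. The regions lay inside Ccnd2, cyclin D2 (2.03 ± 0.40, adjusted p = 0.000935), inside Cdk6, its kinase partner (1.32 ± 0.37, adjusted p = 0.018), over the promoter of Ccne1, cyclin E1 (0.66 ± 0.14, adjusted p = 0.00242), and inside Cdc6, a replication licensing factor (0.85 ± 0.28, adjusted p = 0.0391). The Ccnd2 region averaged 38.9 ± 10.9 CPM (SD, n = 5) in MPP3 and 9.82 ± 7.52 CPM (SD, n = 6) in MPP2. None of the 4 overlapped between classes. Over all tested regions 1.35% were higher in MPP3 without overlap, and these 4 were picked from calls in the same libraries. Without replicate 1 of IκB– MPP2 this list gave 2 higher calls, and with the gene-end share as covariate 1. The summed level of the list was 3250 to 3437 CPM in MPP2 and 3515 to 3767 CPM in MPP3 of IκB– recipients, and overlapped in WT recipients at 3312 to 3799 CPM and 3553 to 3744 CPM. The NF-κB list, with its subunits, inhibitors and targets, had 1 higher call among 43 regions, near the interferon-response factor gene Irf1 (1.10 ± 0.22, adjusted p = 0.000916), and 1 lower call, near Tnip3 (-1.19 ± 0.34, adjusted p = 0.0182), also named after their values were seen. The called 4.65% compares with 12.2% of all regions. The median log2 fold change of the list was 0.24, against 0.016 over all. Its summed level was 2336 to 2583 CPM in WT MPP2, 2701 to 2766 CPM in WT MPP3, 2339 to 2764 CPM in IκB– MPP2 and 2927 to 3504 CPM in IκB– MPP3, so the classes did not overlap within either recipient type. The higher calls of this list numbered 4 without replicate 2 or replicate 3 of IκB– MPP3 or replicate 3 of WT MPP2, and 2 without replicate 3 of IκB– MPP2, replicate 1 of IκB– MPP3 or replicate 1 or 3 of WT MPP3. The lower call was lost without replicate 1 of IκB– MPP2 or of WT MPP2.

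Lists for cells outside the gates were thinly covered, and the few calls among them are named after their values were seen. Over all tested regions 3.35% were called higher and 8.85% lower in MPP3. Of the list for mature T, B and NK cells 4 of 16 genes had a tested region, and their summed level was 144 to 207 CPM in WT MPP2, 177 to 187 CPM in IκB– MPP2, 121 to 128 CPM in WT MPP3 and 90.8 to 115 CPM in IκB– MPP3. The sum was lower in every MPP3 replicate than in every MPP2 replicate, and 1 of the 4 regions, near the perforin gene Prf1, was called lower (-1.96 ± 0.33, adjusted p = 0.000152). The defining genes Cd3g, Cd4, Cd8a and Ms4a1 had no region among those analysed. The part of such cells in the lower calls was not tested. Of the mast cell, basophil and eosinophil list 0 of 5 regions were called, with sums of 221 to 281 CPM in MPP2 and 150 to 235 CPM in MPP3. Of the stroma and endothelium list 1 of 3 regions was called, inside Pdgfrb and higher in MPP3 (1.22 ± 0.37, adjusted p = 0.0259), with sums of 82.4 to 141 CPM in MPP2 and 84.7 to 121 CPM in MPP3. That call was lost without replicate 1 of IκB– MPP2, replicate 2 or 3 of IκB– MPP3, replicate 1 of WT MPP2, or replicates 2 and 3 of WT MPP3 together.

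Calls were rarer at gene ends than away from them. Within 1 kb of either end of a protein-coding gene 480 of 7561 tested regions were called (6.35%), inside genes 599 of 3501 (17.1%) and outside genes 586 of 2589 (22.6%). The contrast was stronger for the regions more open in MPP2: 17.6% of regions outside genes and 4.05% of those at gene ends were lower in MPP3, against 5.06% and 2.30% that were higher. Over 50 kb from any gene end lay 30.2% of the lower calls, 9.61% of the higher calls and 11.7% of all tested regions. The share of all nuclear counts that fell near gene ends was 69.0 ± 1.81% in MPP3 (SD, n = 5) and 67.0 ± 1.03% in MPP2 (SD, n = 6), and the mean of the differences within the recipient types was 1.74 percentage points, which did not pass (two-sided exact permutation test within recipient types, p = 0.085, the smallest possible being 0.005; p = 0.045 and 1.87 points without replicate 2 of WT MPP3). With this share as a covariate 420 regions were called, 104 higher and 316 lower, 401 of them among the 1668, and the sign was kept by all 1668.

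**Figure D3:**
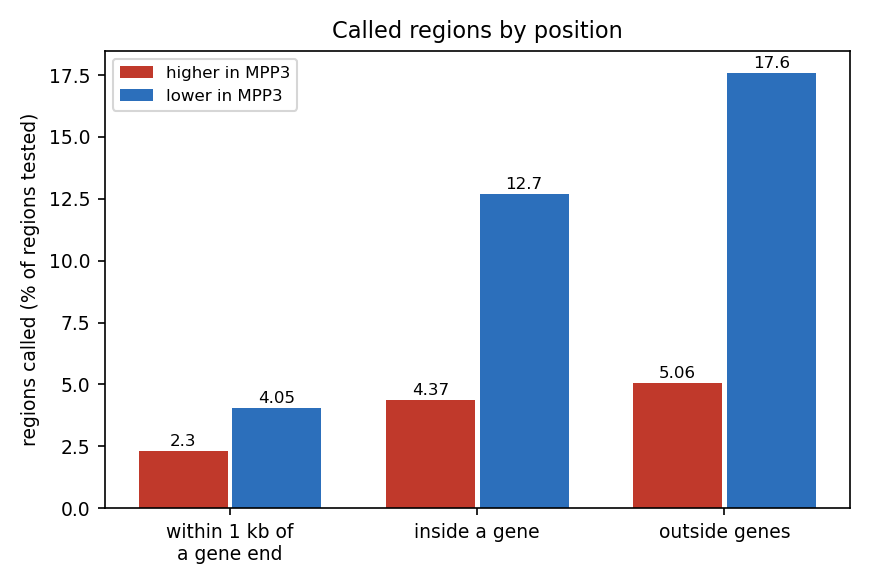
Bars give the percentage of tested regions called higher (red) or lower (blue) in MPP3, for regions within 1 kb of a gene end, inside a gene or outside genes. The share called lower climbs from 4.05% to 12.7% and 17.6%, that called higher from 2.3% to 4.37% and 5.06%.

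The genes nearest to distal regions called lower had 234 tested regions at their ends, of which 17 were called lower (7.26%, against 4.05% of all regions at gene ends) and 3 higher, with a median log2 fold change of -0.064. The genes nearest to distal regions called higher had 121, of which 5 were higher (4.13%, against 2.30%) and 6 lower, with a median of 0.14. Over all regions at gene ends the median was 0.046. Of 9326 genes with a tested region 1186 had a called one, and 67 had 2 or more, of which 36 were lower throughout, 12 higher throughout and 19 mixed.

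The class difference was then read in each recipient type from group means. In IκB– recipients (3 against 3 replicates) 1724 regions were called (12.6%), 426 higher (3.12%) and 1298 lower (9.49%) in MPP3. In WT recipients (2 against 3) 121 were called (0.885%), 26 higher (0.19%) and 95 lower (0.695%). The 98 regions called in both had the same direction, and they make up 81.0% of the WT calls and 5.68% of the IκB– calls. Of the IκB– calls 89.0% had the same sign in WT recipients, against 64.6% of all tested regions, although these arms share no library.

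Among the regions called over both recipient types, those lower in MPP3 had a median log2 fold change of -0.82 in WT and -1.56 in IκB– recipients, and 1047 of the 1210 were larger in size in IκB– recipients. For the higher calls the medians were 0.88 and 0.96, with 279 of 458 larger in IκB– recipients. All these regions were chosen by the test over both recipient types, from the same values. That test held 3 against 3 replicates in IκB– and 2 against 3 in WT recipients. How often uncalled regions were larger in IκB– recipients was not computed. The Mfsd2b region differed by -2.06 and -3.89, the Esf1 region by -2.12 and -4.08 and the Cavin2 region by -3.37 and -4.63 in WT and IκB– recipients. Their adjusted p-values for the difference between recipient types, by edgeR's quasi-likelihood test, were 0.466, 0.308 and 0.664. Other lower regions were larger in WT recipients, such as Slc14a1 (-1.94 and -1.76) and the first Zfpm1 region (-2.17 and -1.78). Cebpa differed by 1.01 and 1.28. The test of the difference between recipient types, edgeR's quasi-likelihood test of the interaction, called 0 of 13672 regions, with 1110 (8.12%) at an unadjusted p under 0.05. The same contrast called 14 regions with the 12 libraries apart, 12 with DESeq2's size factors in edgeR and 10 without a filter. Its smallest adjusted p was 0.0527, inside Dcc, the netrin receptor gene (chr18:72304745-72305008), with 1.52 in WT and -1.92 in IκB– recipients and a difference of -3.44 ± 0.62. In the other direction it was 0.254, at Mtmr3, a lipid phosphatase gene, with 0.031 in WT and 2.05 in IκB– recipients. The gene-end share moved with the recipient type as well: it was 70.1% in MPP3 and 66.4% in MPP2 of IκB– recipients, and 67.4% and 67.7% in WT recipients, and its part in the larger differences was not tested.

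These counts depended on single libraries. The 121 calls in WT recipients became 1 without replicates 2 and 3 of WT MPP3, 5 without replicate 1 and 64 without replicate 2 of that group, 11 and 22 without replicates 1 and 2 of WT MPP2, and 197 and 254 without replicates 1 and 2 of IκB– MPP3. The 1724 calls in IκB– recipients became 531 without replicate 1 of IκB– MPP2 and 1028 without replicate 3 of IκB– MPP3. The higher calls alone numbered 14 without replicate 3 of WT MPP2 and 17 without replicate 3 of WT MPP3 in WT recipients. In IκB– recipients the 426 higher calls became 34 and 209 without replicates 1 and 2 of IκB– MPP2 and 130 without replicate 3 of IκB– MPP3. For the difference between recipient types, 12 regions were called without replicate 1 of WT MPP2, 12 and 17 without replicates 2 and 3 of WT MPP3, 3, 2 and 1 without replicates 1, 2 and 3 of IκB– MPP3, and 1 without replicate 3 of IκB– MPP2. Where 1 sample was left in a group, it was assumed to vary like the others.

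**Figure D4:**
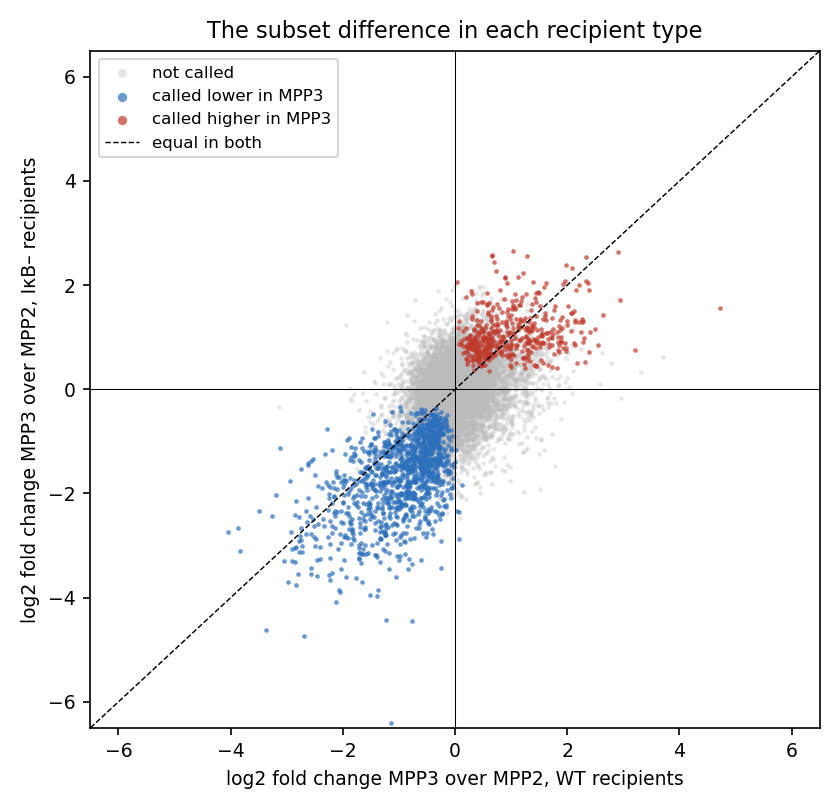
Each point is a tested region, with the log2 fold change MPP3 over MPP2 in WT recipients on the horizontal and in IκB– recipients on the vertical axis, coloured by the call over both; the dashed line marks equal values. Blue points lie mostly below the line, with medians of -0.82 and -1.56, and red points spread around it, with medians of 0.88 and 0.96.

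The called regions were finally followed into the HSC and MPP4 libraries, none of which entered the comparison. In the sorting protocol the HSC gate is negative for CD150 as well as CD48, so the name HSC rests on the sample label. MPP4 against HSC gave 42 calls of 9769 tested regions (0.43%), 35 higher (0.358%) and 7 lower (0.0717%). Regions higher in MPP3 tended to be higher in MPP4 than in HSC: 223 of 312 tested (71.5%), with a median log2 fold change of 0.26 and 17 called higher. Regions lower in MPP3 tended to be lower in MPP4: 658 of 755 (87.2%), with a median of -0.40, 7 called lower and 0 called higher. Regions without a call were higher in MPP4 in 47.9% of 8699. When each HSC and MPP4 library was left out in turn, an alternative chosen after seeing the data, these directions were found in 67.7% to 90.1% of the higher and 73.1% to 93.1% of the lower regions. The 42 calls became 156, 69 higher and 87 lower, without replicate 3 of IκB– HSC, 15 and 19 without replicates 1 and 3 of IκB– MPP4, and 21 and 82 without replicates 1 and 3 of WT MPP4.

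The summed level of the 1210 lower regions was 84430 ± 13933 CPM in WT HSC and 66856 ± 9719 CPM in WT MPP4 (SD, n = 3). In IκB– recipients it was 80400 ± 34590 CPM in HSC and 56861 ± 7799 CPM in MPP4 (SD, n = 3). The IκB– HSC replicates ranged from 41931 to 108939 CPM, the lowest being below all 3 IκB– MPP4 replicates at 47892 to 62048 CPM, so these groups overlapped, as did those of WT recipients. WT MPP2 had 92905 ± 12346 CPM (SD, n = 3) and WT MPP3 59822 ± 3696 CPM (SD, n = 2). The 458 higher regions summed to 26169 ± 3694 CPM in WT HSC and 32217 ± 3389 CPM in WT MPP4 (SD, n = 3). In IκB– recipients they summed to 28994 ± 10094 CPM in HSC and 36329 ± 4177 CPM in MPP4 (SD, n = 3), and the replicates of HSC and MPP4 overlapped in both recipient types. Cebpa was called in these libraries too (1.17, adjusted p = 0.0359), as were Rassf2 (1.59, adjusted p = 0.0115) and Plac8 (1.61, adjusted p = 0.0134) on the higher side and the Esf1 (-1.91, adjusted p = 0.0177), Gucy1b1 (-2.17, adjusted p = 0.0389) and Slc46a3 (-1.53, adjusted p = 0.0472) regions on the lower side. Cavin2 had -1.68 and an adjusted p of 0.0542, and Spi1 had -0.17 and an adjusted p of 0.958.

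**Figure D5:**
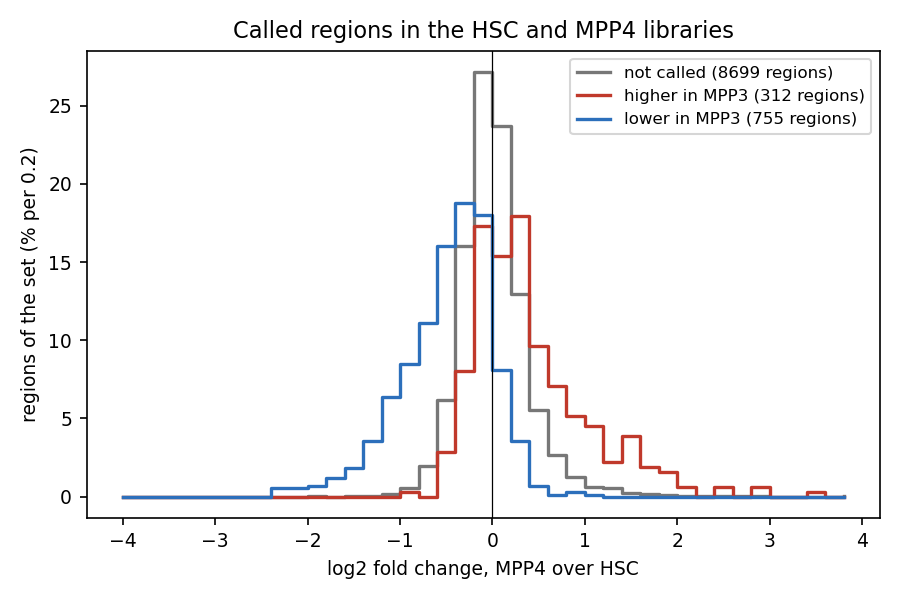
Lines give the distribution of the log2 fold change, MPP4 over HSC, in bins of 0.2, as a percentage of the regions in each set: not called (grey, 8699), higher in MPP3 (red, 312) and lower in MPP3 (blue, 755). The blue line is shifted to the left, with a median of -0.40, and the red line to the right, with a median of 0.26.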

How the data were processed

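The members, gene lists and tests were chosen with earlier results of these data known. The deposited values are raw counts per region, whole numbers, for 13910 regions shared by the 24 libraries. Per the submitters' processing notes, the tools were Bowtie2, SAMtools, Picard, MACS2 2.1.0 and deepTools, and the build was mm10. Their settings, the duplicate filter, any Tn5 offset and the counting step are not given in the sources used here, and whether starts count from 0 or 1 is not stated.

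The 5 mitochondrial regions were dropped. The filter on low counts was filterByExpr by group (13672 regions kept). edgeR 4.0.16 in R 4.3.3 fitted class and recipient type on TMM-scaled counts with a robust quasi-likelihood model (8 residual degrees of freedom), and p-values were adjusted by Benjamini-Hochberg over all tested regions. A second fit of 4 group means gave the contrasts per recipient type. DESeq2 1.42.0 and limma 3.58.1 served as alternatives. Fold changes are shown with SE and CPM with SD. Each region took the name of the nearest protein-coding gene end within 50 kb in the RefSeq table of GRCm38.p6. Text names the 12 regions with the smallest p in each direction, called regions of the gate, erythroid and megakaryocyte, granulocyte and macrophage, lymphoid and stem cell lists, gate gene regions, and the smallest p of the interaction in each direction. The few calls of the other lists are named after their values were seen. Some regions that this rule selects are not reported here. On simulated counts for this comparison (13672 regions) the fit called 64 of 100 regions changed 2-fold, 96 of 100 changed 4-fold and 4 of 13229 unchanged. Replicate numbers were not taken as pairs. PCR copies of 1 molecule may be counted more than once, which no error given here covers.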

Additional observations from a re-analysis of the deposited data

Results flagged for a closer look

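The 5 mitochondrial regions, which no comparison used, held between 13496 and 17356 counts in each of the 12 libraries, a 1.29-fold range, while the nuclear counts ranged 7.22-fold. The mitochondrial share of all counts therefore ran from 1.40% to 10.3%. They were singled out as signal outside the main measurement. No outlier was searched for among groups of 3 libraries.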

How the results depend on the processing

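All tested calls kept their sign in each of the 27 alternatives to the main comparison. The number called moved by over 1.5 times with at least 20 counts on average (557: 167 higher, 390 lower; fewer regions tested, 8006), with all 8 groups in the fit (1104, 241 higher), with gene-end share as covariate (420: 104 and 316), with DESeq2 for the higher calls (295) and with 1 replicate left out (887 to 1891: 193 to 555 higher, 694 to 1339 lower; 272 higher without replicates 2 and 3 of WT MPP3 together). In WT recipients 1 to 64 higher and 4 to 190 lower regions, 5 to 254 in all, were called with 1 replicate left out, 0 and 1 without replicates 2 and 3 of WT MPP3 together, and 212 (60 and 152) with the 12 libraries apart. In IκB– recipients the ranges were 531 to 2191 in all, 34 to 636 higher and 497 to 1555 lower. The difference between recipient types gave 0 to 17 calls, all lower, with 1 replicate left out, 14 with the libraries apart, 12 with DESeq2's size factors and 10 without a filter. The gene-end share difference ranged from 1.34 to 2.1 points, the latter without replicate 2 of IκB– MPP3. The causes were not tested.

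After the group mean of log2 CPM was subtracted in each region, same-numbered MPP2 and MPP3 libraries correlated with 0.326, 0.0845 and 0.118 in WT recipients. In IκB– recipients these correlations of deviations were 0.253, 0.0726 and 0.127. Each was higher than with other numbers, a hint from the data and not from the design. With a replicate block and the 12 libraries apart 2493 regions were called (1000 higher, 1493 lower), 544 in WT (226 and 318), 3585 in IκB– recipients (1514 and 2071) and 210 for their difference (31 and 179), against 1785, 212, 1780 and 14 with the libraries apart and no block.

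Over the named regions and alternatives 1640 values kept direction and call, 153 lost the call and 11 changed sign, none of them called. With gene-end share as covariate these were Kit (-0.075), Flt3 (-0.0065) and Dcc (0.86). With 1 replicate left out, the second Kit region ranged from -0.030 to 0.36 and that inside Flt3 from -0.23 to 0.064, both turning sign without replicate 1 of IκB– MPP2, and the former gave -0.17 without replicates 2 and 3 of WT MPP3. Dcc ranged from -0.38 to 0.29 and was above 0 without any 1 of the replicates 1 and 2 of IκB– MPP2 or 1, 2 and 3 of IκB– MPP3. On simulated counts 64 of 100 changes of 2-fold were called, so a change not called is not shown to be absent. How depth limits this was not tested.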
